A study of Mus musculus with 20 samples.

Results

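The subject is 43 genes of DNA replication and mitosis, read for histone marks in bone marrow cells that lack p300, Tet2, or both. The members were a fixed list of gene names, and each was found once among the 21951 protein-coding genes of GENCODE release 21 on GRCm38, the mouse assembly also called mm10. A peak belonged to a member when it overlapped the gene body or the 5000 bp on either side of it, and it was a promoter peak when it overlapped the 1000 bp on either side of the gene start. The members fall into 14 genes of origin licensing and the replicative helicase, 7 of the replication fork and nucleotide supply, 7 of E2F and G1/S control, and 15 of mitosis. They lie on 15 chromosomes and measure 4153 to 61075 bp, with a median of 14346 bp against 17403 bp for protein-coding genes.

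Chromatin came from lineage-negative (Lin-) bone marrow cells, the fraction that remains once maturing blood cells have been removed by their lineage antigens, at a labelled purity above 80%. WT mice were Ep300 fl/fl, Ep300Δ/Δ mice were Mx1-Cre;Ep300 fl/fl, Tet2-/- mice were Ep300 fl/fl;Tet2-/-, and Ep300Δ/ΔTet2-/- mice were Mx1-Cre;Ep300 fl/fl;Tet2-/-, so every group carried the floxed Ep300 allele. Per the methods the mice were C57BL/6 of both sexes, and WT, Ep300Δ/Δ, Tet2-/-, and Ep300Δ/ΔTet2-/- mice alike received 3 doses of poly(I:C), begun at 6 to 8 weeks of age. Mx1-Cre responds to interferon, and poly(I:C) switches it on in hematopoietic cells but also in other tissues, so the deletion is not limited to 1 blood lineage. The labels call the mutant groups p300 Knockout, Tet2 Knockout, and p300 Tet2 Knockout. H3K27ac, H3K4me1, and H3K4me3 were each measured in 1 library per genotype, which gave 12 peak lists. Each genotype thus had a single precipitation per mark with no replicate, so the variation among mice is unknown and no statistical test was run. Another 8 samples, for total H3 and H3K27me3, were not analysed here.

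Before S phase, origins are licensed when the origin recognition complex, Cdc6, and Cdt1 load the Mcm2 to Mcm7 ring onto DNA. The ring becomes an active helicase when Cdc45 and the GINS complex join it. Genes of this step and of nucleotide synthesis are classic targets of E2F transcription factors, which are held in check by the retinoblastoma proteins until cyclin E and Cdk2 act. Genes of mitosis are transcribed later, and many are controlled through a cell cycle homology region (CHR) and CCAAT boxes, bound by MuvB complexes and by NF-Y. H3K27ac, which p300 and CBP lay down, marks active promoters and enhancers, H3K4me3 marks promoters, and H3K4me1 marks enhancers and the flanks of promoters.

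The H3K27ac lists held 29659 peaks in WT, 22727 in Ep300Δ/Δ, 24539 in Tet2-/-, and 18327 in Ep300Δ/ΔTet2-/- cells, and these covered 18.7, 11.5, 15.0, and 11.9 Mb. The H3K4me1 lists held 90738 to 107392 peaks and the H3K4me3 lists 25012 to 27807. Peak lists do not carry the sequencing depth, and the part of list length in any difference between genotypes was not tested beyond the equal-size lists given below. The Ep300Δ/Δ H3K27ac list had 7.17% of its peaks at a q value of 0.05 or more, against 0.780% to 0.900% in the other H3K27ac lists. Of 8 progenitor markers (Kit, Cd34, Gata2, Flt3, Mpo, Spi1, Myb, Runx1), 6 had a promoter H3K27ac peak in all 4 lists, while Cd34 had it in Ep300Δ/Δ and Ep300Δ/ΔTet2-/- cells only and Gata2 in WT and Tet2-/- cells only, and all 8 had H3K4me3. Among markers of mature lineages, Itgam had promoter H3K27ac in WT and Ep300Δ/Δ cells and Klrb1c in WT and Ep300Δ/ΔTet2-/- cells, while Cd3e, Cd4, Cd8a, Ms4a1, and Ly6g had it in none. Alb, Ins2, Myh6, and Krt5, genes of other tissues, had no promoter peak of any mark. The Ep300 and Tet2 promoters had H3K27ac and H3K4me3 peaks in all 4 genotypes, which does not check the deletions. In a bulk preparation, fewer cycling cells and less of a mark per cell cannot be told apart.

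The promoter sequences are shown first, because the members' roles differ in the motifs around their starts. The 250 bases before and 50 from each gene start were searched on both strands for E2F words (TTTCCCGC, TTTCGCGC, TTTGCCGC, TTTGGCGC), the CHR word (TTTGAA), and the CCAAT box (CCAAT). E2F words can overlap each other, as in Mcm5 and Mcm6, and the 3 kinds of word do not contain one another. An E2F word stood in 13 of 43 members (30.2%), against 2.79% of 21938 protein-coding promoters with sequence and 4.95% of the 7777 protein-coding promoters that had H3K27ac and H3K4me3 in all 4 genotypes. By role these were 7 of 14 licensing genes, 1 of 7 fork genes, 4 of 7 G1/S genes, and 1 of 15 mitosis genes. A CHR word stood in 14 members (32.6%), against 16.4% of coding promoters and 12.4% of the marked ones, and 10 of the 14 were mitosis genes. All 10 of those mitosis genes also had a CCAAT box. Cdk1, the kinase that drives entry into mitosis, was the 1 member with both an E2F and a CHR word.

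Mcm5 and Mcm6, subunits of the helicase ring, E2f1, an E2F activator, and Cdk1, Ccnb2 (cyclin B2, a Cdk1 partner), and Top2a (topoisomerase II alpha, which untangles sister DNA) are printed as clear cases of each kind. They were chosen after the matches were seen. Capitals mark E2F words, CHR words, and CCAAT boxes on either strand, the sequence reads 5′ to 3′ along the gene, and the last 50 bases begin at the gene start.
Mcm5, chr8:75109319-75109618, plus strand: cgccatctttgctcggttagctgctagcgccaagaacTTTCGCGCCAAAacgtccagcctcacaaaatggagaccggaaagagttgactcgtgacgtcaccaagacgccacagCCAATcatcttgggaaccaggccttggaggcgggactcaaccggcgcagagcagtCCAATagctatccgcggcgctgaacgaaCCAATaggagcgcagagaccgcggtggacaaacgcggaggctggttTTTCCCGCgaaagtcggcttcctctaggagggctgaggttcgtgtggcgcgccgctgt
Mcm6, chr1:128359615-128359914, minus strand: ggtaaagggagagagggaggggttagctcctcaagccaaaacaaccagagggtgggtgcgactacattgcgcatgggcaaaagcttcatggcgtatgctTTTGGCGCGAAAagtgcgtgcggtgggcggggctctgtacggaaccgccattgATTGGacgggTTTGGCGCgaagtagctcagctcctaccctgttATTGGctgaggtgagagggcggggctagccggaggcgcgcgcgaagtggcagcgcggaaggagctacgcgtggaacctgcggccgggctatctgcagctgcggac
E2f1, chr2:154569843-154570142, minus strand: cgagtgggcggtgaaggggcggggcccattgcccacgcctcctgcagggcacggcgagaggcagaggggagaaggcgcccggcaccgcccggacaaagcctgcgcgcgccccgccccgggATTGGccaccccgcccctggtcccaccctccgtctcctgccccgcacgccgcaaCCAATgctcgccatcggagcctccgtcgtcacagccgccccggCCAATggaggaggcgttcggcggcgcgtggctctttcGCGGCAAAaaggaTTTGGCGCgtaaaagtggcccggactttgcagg
Cdk1, chr10:69352889-69353188, minus strand: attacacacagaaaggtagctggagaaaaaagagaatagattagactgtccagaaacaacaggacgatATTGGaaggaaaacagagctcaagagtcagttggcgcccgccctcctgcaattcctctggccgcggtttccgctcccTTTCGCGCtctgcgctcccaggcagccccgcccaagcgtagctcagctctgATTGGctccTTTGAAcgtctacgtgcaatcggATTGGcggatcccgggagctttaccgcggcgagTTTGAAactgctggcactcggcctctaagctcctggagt
Ccnb2, chr9:70421498-70421797, minus strand: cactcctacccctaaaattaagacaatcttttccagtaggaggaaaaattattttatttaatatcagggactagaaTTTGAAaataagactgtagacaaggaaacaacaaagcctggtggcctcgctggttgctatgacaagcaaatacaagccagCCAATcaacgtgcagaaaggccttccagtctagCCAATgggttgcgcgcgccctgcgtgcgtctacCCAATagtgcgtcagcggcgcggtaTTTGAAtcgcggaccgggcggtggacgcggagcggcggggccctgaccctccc
Top2a, chr11:99024140-99024439, minus strand: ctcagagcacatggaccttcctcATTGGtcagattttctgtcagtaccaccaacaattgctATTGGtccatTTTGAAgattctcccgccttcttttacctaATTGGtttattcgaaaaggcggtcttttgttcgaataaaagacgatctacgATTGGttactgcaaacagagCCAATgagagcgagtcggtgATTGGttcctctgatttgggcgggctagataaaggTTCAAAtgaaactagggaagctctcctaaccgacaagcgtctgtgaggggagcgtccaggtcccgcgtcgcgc
The sequences are those of GRCm38 from RefSeq. In E2f1 the E2F words began 5 and 18 bases past the start and the CCAAT boxes at -130, -76, and -33. In Cdk1 an E2F word lay at -105 and CHR words at -45 and 12. The nearest CHR word was within 50 bases of the start in 11 of 14 members that had one, and the nearest E2F word in 7 of 13. The shares were 78.6% and 53.8%, against 25.1% and 36.8% of coding promoters with the word and 26.1% and 37.7% of marked ones. Gins1, whose annotated start is not its coding start, is 1 of the 11. CCAAT boxes, a word of 5 bases that base composition alone often gives, stood in 33 members (76.7%) against 39.0% of coding and 40.2% of marked promoters. GC boxes (GGGCGG) stood in 32 (74.4%, against 63.9% of marked promoters), TATA boxes (TATAAA) in 4 (9.30%, against 12.6% of coding and 6.70% of marked promoters), and MYB words (CAACTG, its variant CAACGG, the word TAACTG, and its variant TAACGG) in 8 (18.6%, against 27.1% and 25.7%). The median GC content was 57.3% in member promoters, 55.0% in coding promoters, and 60.0% in the marked ones. Mcm7, Pcna, Rfc4, Tyms, Tk1, Ccne1, Ccna2, and Birc5 had none of the E2F, CHR, and CCAAT words in this window. For Mcm7 the window may miss the marked part of the promoter. Its strongest WT peaks had summits 866 bp (H3K27ac) and 1284 bp (H3K4me3) past the start, against member medians of 182 and 191 bp.

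**Figure D1:**
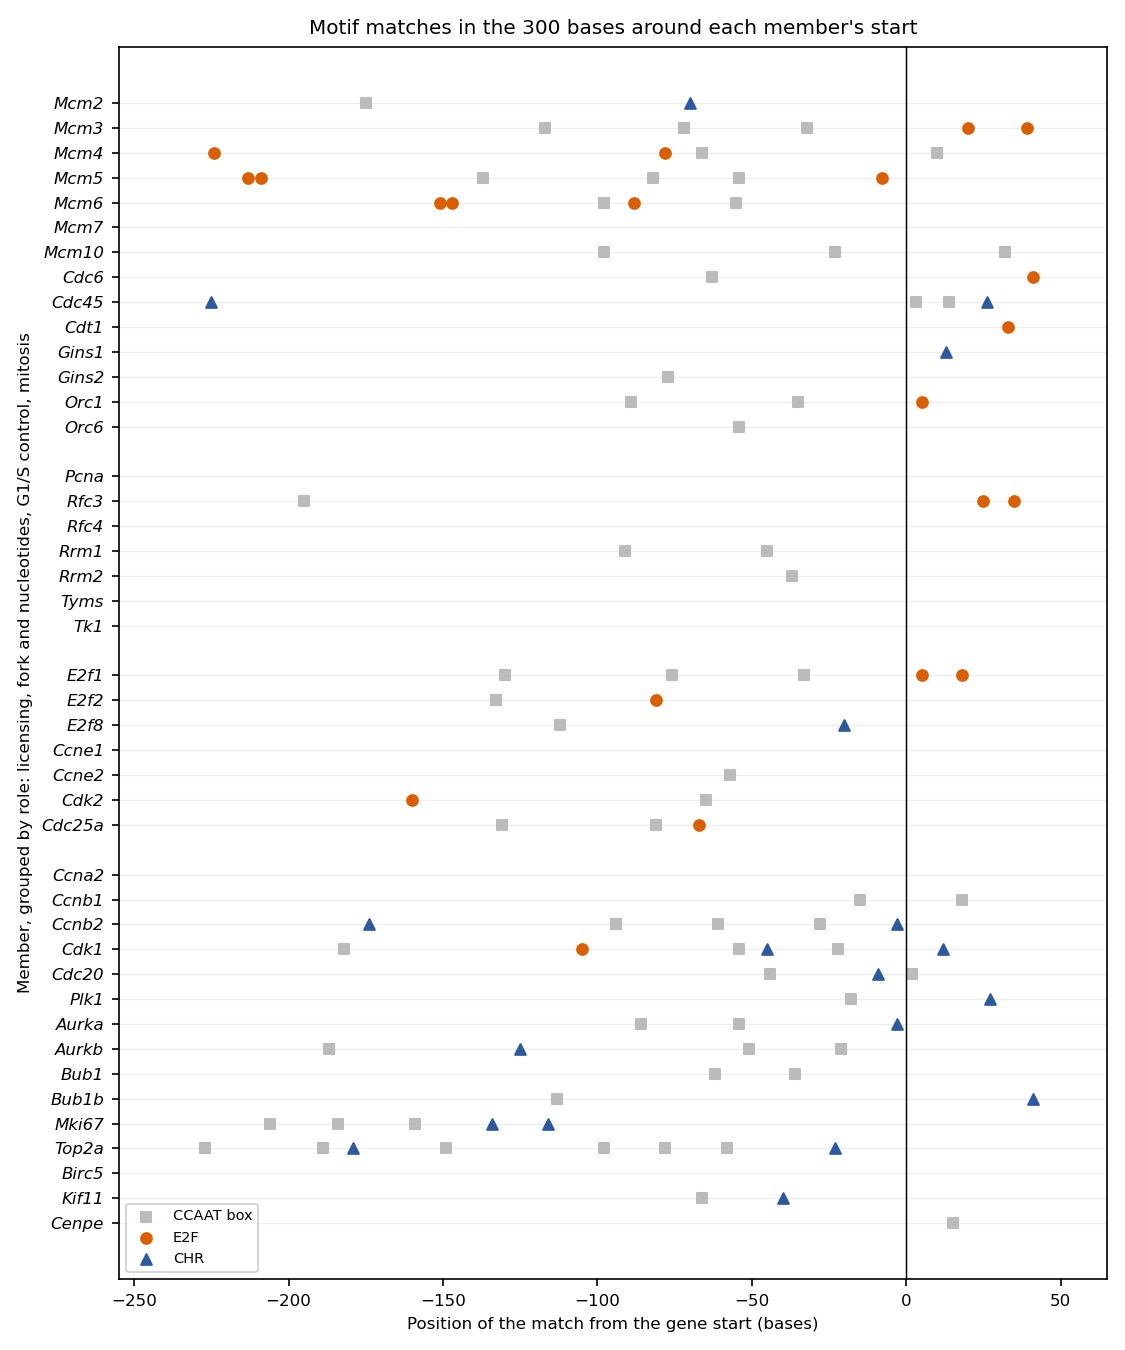
Matches to 3 motifs by position, in bases from the gene start (x axis), for each of the 43 members (rows, in 4 role blocks). Orange circles are E2F words, blue triangles CHR words, and gray squares CCAAT boxes. E2F words stand in 13 members, of which 7 are licensing genes, and CHR words in 14, of which 10 are mitosis genes.

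The first comparison asked which members carry each mark at the promoter in each genotype. Every one of the 43 promoters had an H3K27ac peak in all 4 lists and an H3K4me3 peak in all 4 lists. Among protein-coding genes, 42.0%, 40.2%, 41.1%, and 38.3% had promoter H3K27ac in WT, Ep300Δ/Δ, Tet2-/-, and Ep300Δ/ΔTet2-/- cells, and 56.7%, 57.8%, 57.1%, and 57.3% had promoter H3K4me3. Both marks in all 4 lists were found at 35.4% of protein-coding genes. No member promoter was therefore listed as lost or gained for either mark between any of the 3 pairs of genotypes compared. Among coding promoters with H3K27ac in the first list, 7.71% had none in the second from WT to Ep300Δ/Δ, 10.2% from Tet2-/- to Ep300Δ/ΔTet2-/-, and 6.34% from WT to Tet2-/-. Among those in the second list, 3.37%, 3.67%, and 4.16% were absent from the first. For H3K4me3 the lost shares were 1.49%, 1.63%, and 1.54% and the gained shares 3.40%, 2.10%, and 2.20%. Of the 43 members, 9 share the promoter window with the start of another protein-coding gene, for example Mcm4 with Prkdc and Aurka with Cstf1, and the peaks there cannot be assigned to 1 of the 2 genes. The other 34 gave the same answer, 34 of 34 for both marks in every genotype. The weakest call was at Cdc25a, the phosphatase that activates Cdk2, whose H3K27ac peaks in Ep300Δ/ΔTet2-/- cells did not reach a -log10 q of 5.

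The same held less completely for other cell cycle genes. Of 78 further genes of replication, E2F control, and mitosis, promoter H3K27ac was listed at 77 in WT, 75 in Ep300Δ/Δ, 74 in Tet2-/-, and 68 in Ep300Δ/ΔTet2-/- cells, and H3K4me3 at 77 in each. Rfc2, a subunit of the clamp loader, had neither mark. Gins3, Pole (the leading-strand polymerase), Cdc25b, Cdc25c, Cenpf, and Ube2c had H3K27ac in WT, Ep300Δ/Δ, and Tet2-/- cells and none in Ep300Δ/ΔTet2-/- cells. E2f5 had it in WT cells alone, E2f7 in WT and Ep300Δ/Δ cells, E2f6 in WT and Tet2-/- cells, and E2f4 in all but Tet2-/- cells.

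H3K4me1 gave a different picture, with a peak in the promoter window of 29, 30, 29, and 27 members in WT, Ep300Δ/Δ, Tet2-/-, and Ep300Δ/ΔTet2-/- cells. Among protein-coding genes the shares were 48.4%, 49.4%, 46.6%, and 49.2%. Orc6, Pcna (the sliding clamp), Rrm1 (the large subunit of ribonucleotide reductase), Cdk1, and Kif11 (a spindle motor) had no promoter H3K4me1 in any list, 22 members had it in all 4, and the remaining 16 had it in 1 to 3. Of the 7777 coding promoters with H3K27ac and H3K4me3 in all 4 genotypes, 12.5% had H3K4me1 in none and 52.9% in all 4, so the members lay near these shares. These peaks seldom reached the gene start. The gene start itself was inside an H3K4me1 peak in 2, 1, 2, and 1 members, beside 11.8%, 11.1%, 10.2%, and 11.2% of protein-coding genes, whereas it was inside an H3K4me3 peak in 40, 42, 41, and 40, beside 49.1%, 50.8%, 47.9%, and 46.4%. H3K4me1 at the start itself was thus uncommon among coding genes in general. H3K4me1 covered the most members at 1600 bp past the start in WT cells, where 51.2% were covered (all coding genes were covered the most at 900 bp, 20.9%), and at 1700, 1600, and 1900 bp in Ep300Δ/Δ, Tet2-/-, and Ep300Δ/ΔTet2-/- cells. Within 500 bp of the start 12, 16, and 13 members had H3K4me1 in WT, Ep300Δ/Δ, and Tet2-/- cells, fewer than in the full window, whereas 21 of 27 still had it in Ep300Δ/ΔTet2-/- cells. The shares within 500 bp were 27.9%, 37.2%, 30.2%, and 48.8% of members in WT, Ep300Δ/Δ, Tet2-/-, and Ep300Δ/ΔTet2-/- cells, beside 36.8%, 37.8%, 33.3%, and 37.9% of coding genes.

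**Figure D2:**
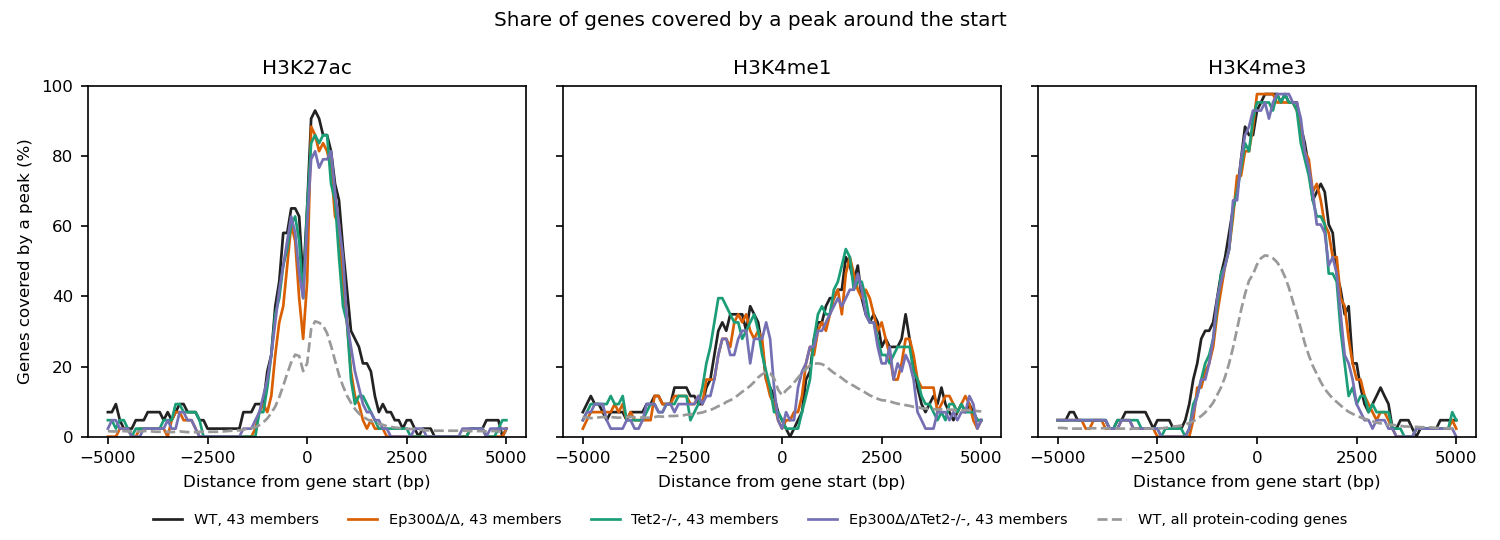
Share of genes whose position at a given distance from the start (x axis, bp, positive in the direction of transcription) lay inside a peak (y axis, %), for H3K27ac, H3K4me1, and H3K4me3. Solid lines are the 43 members in 1 list per genotype, and the dashed line is all protein-coding genes in WT. In WT cells H3K27ac covered 93.0% of members at 200 bp past the start and 65.1% at the start itself, H3K4me3 covered 93.0% at the start, and H3K4me1 covered 4.7% there.

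H3K27ac covered more members downstream of the start than at or upstream of it. In WT cells 65.1% of members were covered at the start, 58.1% at 500 bp upstream, and 90.7% at 300 bp downstream. Coding genes had the same order, with 20.9% covered at the start, fewer upstream, and 32.5% downstream. The start lay inside an H3K27ac peak in 28 members in WT, 19 in Ep300Δ/Δ, 28 in Tet2-/-, and 26 in Ep300Δ/ΔTet2-/- cells, against 20.9%, 14.1%, 21.0%, and 18.5% of protein-coding genes. The lists thus kept a peak at every member in Ep300Δ/Δ cells, while fewer of those peaks ran across the start. Coverage of the start fell at coding genes too, so the members went the way of coding genes. Peaks of the Ep300Δ/Δ list were also the narrowest. Their median width was 402 bp, against 497 bp in WT, 490 bp in Tet2-/-, and 535 bp in Ep300Δ/ΔTet2-/- cells. The strongest promoter peak of a member stood high in its own list. Its fold enrichment over the H3 library exceeded that of a median 94.5% of the peaks in the WT list, 86.8% in Ep300Δ/Δ, 84.6% in Tet2-/-, and 79.0% in Ep300Δ/ΔTet2-/-, against medians of 80.3%, 75.5%, 77.0%, and 71.2% for coding genes with a promoter peak. The highest was Rrm1 in WT cells, at 99.7%. At the other end, Cdc25a stood at 87.9%, 78.1%, 83.7%, and 0.4% in WT, Ep300Δ/Δ, Tet2-/-, and Ep300Δ/ΔTet2-/- cells, and Plk1, a mitotic kinase, at 42.1%, 51.1%, 17.1%, and 43.7%. These ranks are within 1 list and are not amounts that can be compared between genotypes.

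The length of the promoter window covered by H3K27ac peaks varied among members and genotypes. Its median was 1357 bp in WT, 1039 bp in Ep300Δ/Δ, 1192 bp in Tet2-/-, and 1230 bp in Ep300Δ/ΔTet2-/- cells, against 966, 786, 926, and 864 bp for coding genes with a promoter peak. From WT to Ep300Δ/Δ the covered length was shorter at 37 members and longer at 6, with a median ratio of 0.901. Among coding genes with H3K27ac in all 4 lists, 83.3% were shorter and the median ratio was 0.852, so the members went the way of most marked genes. From Tet2-/- to Ep300Δ/ΔTet2-/- it was shorter at 22 members, longer at 20, and equal at 1, with a median ratio of 0.977, beside 60.2% shorter and 0.951 for coding genes. From WT to Tet2-/- it was shorter at 24 and longer at 19, with a median ratio of 0.995, beside 57.8% shorter and 0.972 for coding genes. H3K4me3 filled the 2001 bp window at some members, and its length there was equal at 11, 9, and 11 members in the same 3 comparisons, so it was read over the gene with 5000 bp either side. There it was shorter at 33, 23, and 34 members, with median ratios of 0.943, 0.994, and 0.909, beside 67.0%, 57.6%, and 55.2% shorter and ratios of 0.956, 0.982, and 0.988 for coding genes.

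Single members departed from these medians in both directions. At Gins2, a subunit of the GINS complex, H3K27ac covered 1357 bp of the window in WT and 572, 552, and 480 bp in Ep300Δ/Δ, Tet2-/-, and Ep300Δ/ΔTet2-/- cells. Mcm7 had 1654, 984, 1250, and 936 bp in the same order. Ccne2, cyclin E2, had 1731, 1570, 1682, and 760 bp. At Gins2 the WT list was the longest and the other 3 lists were alike, whereas at Ccne2 the Ep300Δ/ΔTet2-/- list stood apart. Cenpe, a kinetochore motor, ran the other way with 580, 751, 994, and 1375 bp. Cdk1 had 1027, 1182, 1039, and 1683 bp. Plk1 had 1523, 1011, 1722, and 1967 bp, the last nearly the whole window of 2001 bp. Bub1 and Bub1b, which delay anaphase until chromosomes are attached, had the narrowest marks of the mitosis genes, 375 to 457 bp and 448 to 490 bp, with little spread over the 4 lists.

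**Figure D3:**
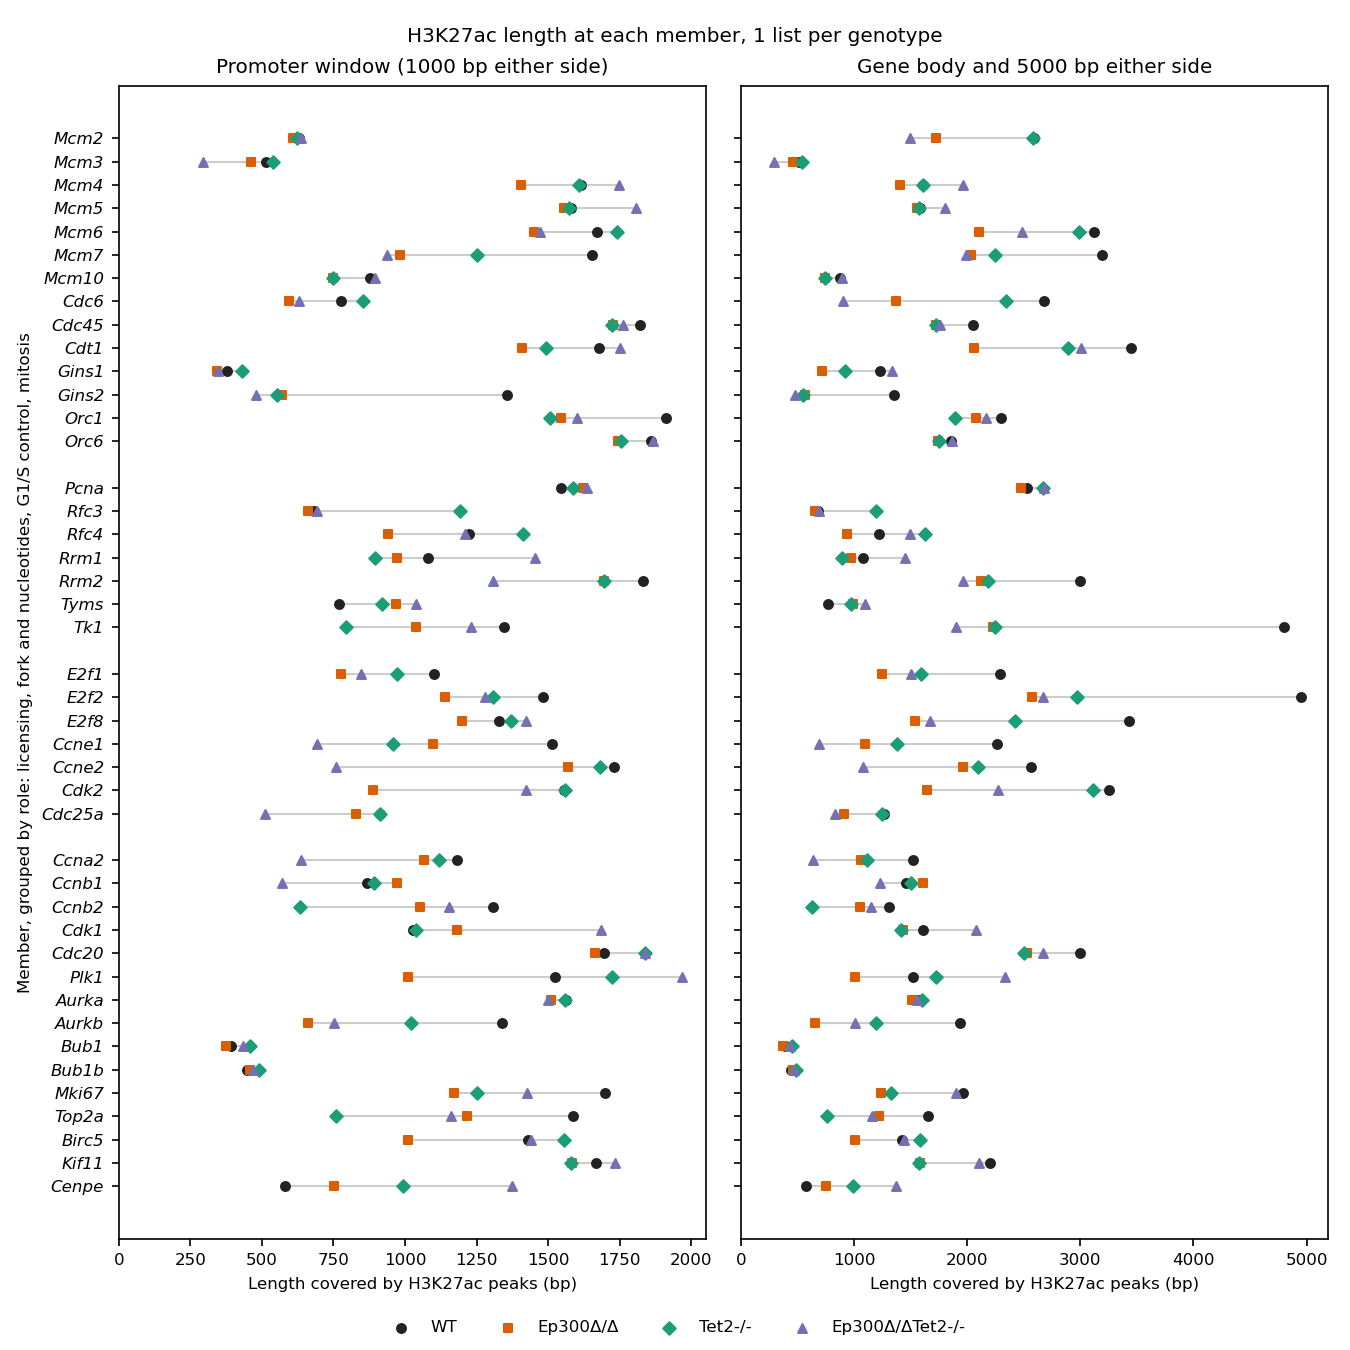
Length covered by H3K27ac peaks (x axis, bp) at each member (rows, in 4 role blocks) in the promoter window (left) and in the gene body with 5000 bp either side (right). Each point is 1 list and the gray bar joins the lowest and highest of the 4. In the right panel E2f2 and Tk1 reach 4954 and 4796 bp in WT and lie between 1900 and 2967 bp in the other genotypes.

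The second comparison asked about peaks outside the promoter window. An H3K27ac peak there was listed for 22, 17, 21, and 19 members in WT, Ep300Δ/Δ, Tet2-/-, and Ep300Δ/ΔTet2-/- cells, beside 32.3%, 26.3%, 30.0%, and 24.7% of protein-coding genes. H3K4me1 was listed for 41, 39, 38, and 38 members, beside 61.2%, 60.0%, 60.9%, and 61.0%. H3K4me3 was listed for 26, 24, 27, and 25, beside 38.0%, 37.1%, 38.5%, and 38.0%. Part of these peaks sit at other genes, since 17 members have another coding start in the span. Leaving out peaks at the coding starts of other genes, 17, 10, 15, and 12 members had H3K27ac outside the promoter, and Gins1, whose own coding start lies inside the gene, is among them in each list.

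Regions were then compared in pairs by merging 2 H3K27ac lists, a merged region being lost when the second list had no peak in it and gained when the first had none. From WT to Ep300Δ/Δ, 25 of 44 regions outside member promoters were lost (56.8%) and 2 of 21 gained (9.52%), beside 48.4% lost and 15.7% gained at protein-coding genes. From Tet2-/- to Ep300Δ/ΔTet2-/-, 8 of 28 were lost (28.6%) and 5 of 25 gained (20.0%), beside 46.7% and 19.5%. From WT to Tet2-/-, 20 of 45 were lost (44.4%) and 4 of 29 gained (13.8%), beside 43.4% and 24.7%. Loss from WT thus lay near the share found for coding genes in general. With the H3K27ac lists cut to their strongest 18327 peaks each, the lost regions numbered 4, 5, and 3 and the gained regions 1, 8, and 6 in these comparisons, so that gains outnumbered losses in the last 2. With these lists 31.4%, 29.6%, and 29.6% of regions at coding genes were lost and 20.4%, 28.5%, and 25.5% gained, beside 21.1%, 22.7%, and 15.0% lost and 6.25%, 32.0%, and 26.1% gained at members.

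Across all 4 H3K27ac lists there were 49 regions at 26 members. Of these, 15 lay at the start of another coding gene, and 12 of the 15 were listed in every genotype. The remaining 34, at 20 members, divided into 6 listed in all 4 genotypes, 16 listed in WT alone, and 12 with other patterns. At all protein-coding genes there were 16426 such regions, of which 18.9% were listed in all 4 genotypes and 29.2% in WT alone, against 17.6% and 47.1% at members. The WT list is the longest of the 4, and its part in these shares was not tested. The 6 regions in all 4 lists lay at Cdt1, Gins1, Tk1, E2f1, E2f2, and Aurkb. Their WT fold enrichment of 7.02 to 23.37, or up to 18.63 without Gins1, stood above 52.6% to 92.7% of the peaks in that list, or up to 88.7%. The 16 regions in WT alone, at 11 members, had a WT fold of 3.41 to 5.59 that stood above 6.1% to 37.9% of the list. The WT folds of these 2 sets did not overlap, with or without Gins1, whose region is described below, but the 12 kept regions at other coding starts had WT folds of 3.89 to 29.53, which overlap those of the regions in WT alone. A region kept in all lists is also more likely to have a high WT fold by the way it was picked. Widths were not compared, since a region in all 4 lists merges several peaks. H3K4me1 was mostly listed in the genotypes without the H3K27ac peak too. Of the 16 regions in WT alone, 14 had an H3K4me1 peak in WT, 13 in Ep300Δ/Δ, 12 in Tet2-/-, and 12 in Ep300Δ/ΔTet2-/- cells. At all protein-coding genes 85.6%, 76.1%, 80.5%, and 75.9% of the regions in WT alone had it in the same lists, so the members lay near these shares.

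**Figure D4:**
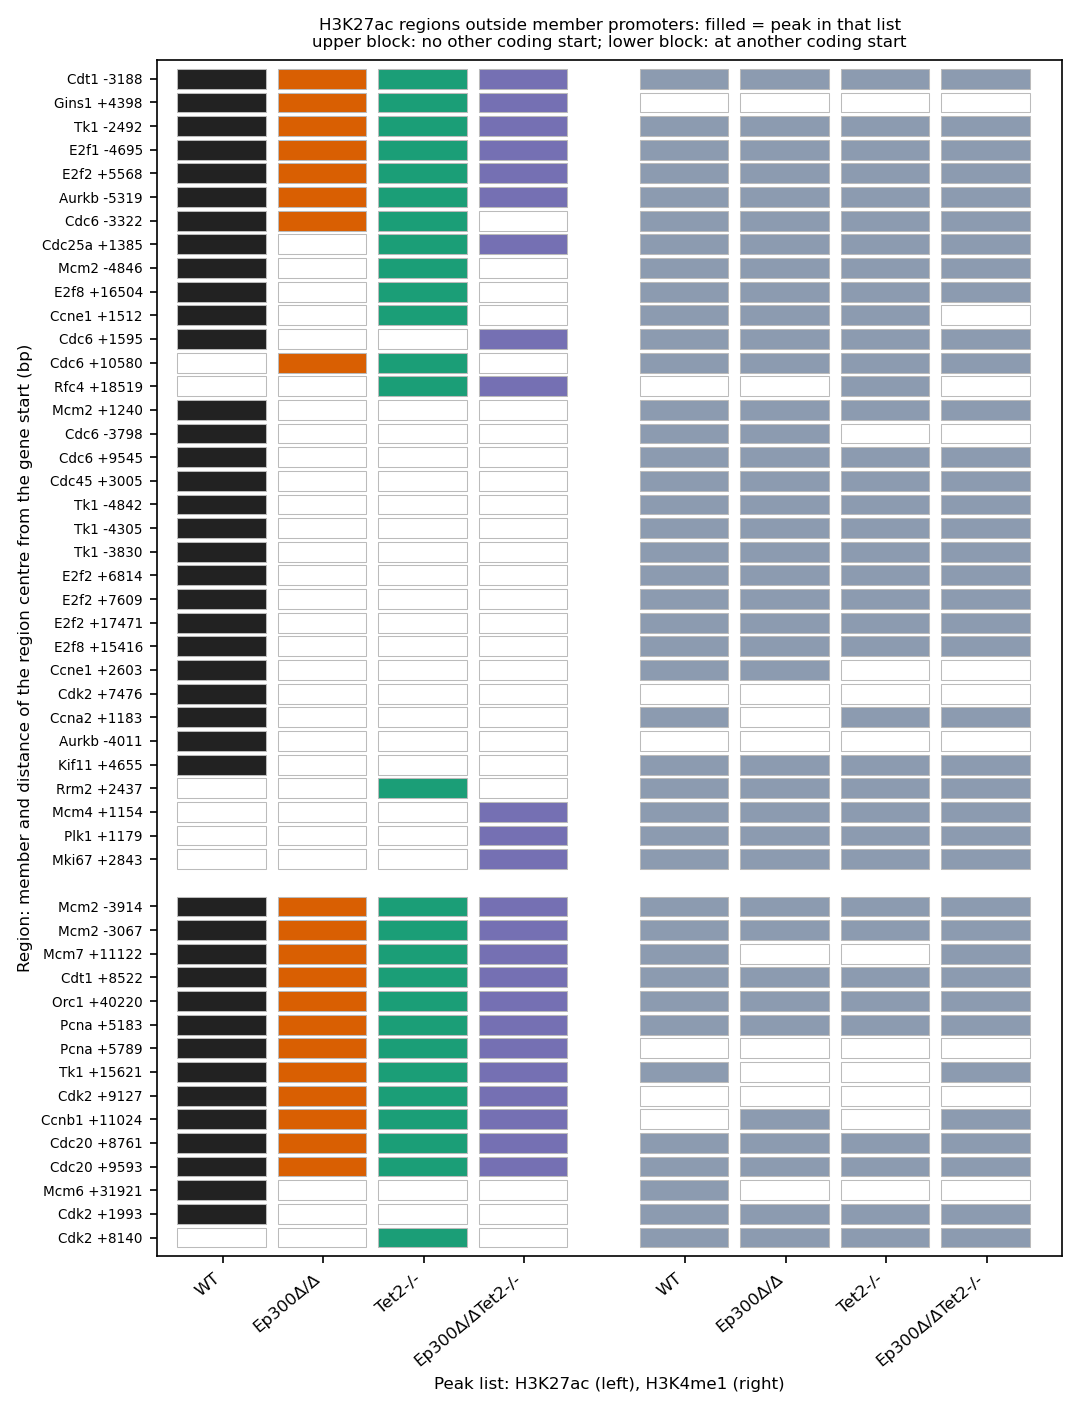
The 49 H3K27ac regions outside member promoters (rows, with the distance of the centre from the gene start in bp) against the 4 H3K27ac lists (colored) and the 4 H3K4me1 lists (gray). A filled box is a peak in that list. In the upper block, away from other coding starts, 6 regions are filled in all 4 H3K27ac lists and 16 in WT alone, while the gray boxes beside those 16 are mostly filled in every genotype.

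By role, the E2F and G1/S genes had 14 of the 49 regions at 6 of 7 members, with 13 listed in WT, 3 in Ep300Δ/Δ, 7 in Tet2-/-, and 4 in Ep300Δ/ΔTet2-/- cells. The licensing genes had 17 regions, with 15, 9, 10, and 9 listed. The fork and nucleotide genes had 9, with 7, 4, 6, and 5 listed, and the 15 mitosis genes had only 9 in all, with 7, 4, 4, and 6 listed. The E2F and G1/S genes carried 7 of the 18 regions listed in WT alone when those at other coding starts are included. No share over coding genes was computed for these role counts, and they were not recomputed with lists of equal size. With such lists the losses over all members from WT to Ep300Δ/Δ fell from 25 to 4.

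E2f2, an E2F activator, had the longest H3K27ac coverage of all members in WT, 4954 bp over its span, and 2572, 2967, and 2669 bp in Ep300Δ/Δ, Tet2-/-, and Ep300Δ/ΔTet2-/- cells. An intronic peak that began 426 to 445 bp past the start ended at 2623 bp in WT and at 1258, 1135, and 1325 bp in Ep300Δ/Δ, Tet2-/-, and Ep300Δ/ΔTet2-/- cells. A region farther into the gene body (chr4:136177176-136178748) was listed in every genotype, with a fold over H3 of 11.55 in WT, 5.25 in Ep300Δ/Δ, 7.01 in Tet2-/-, and 5.28 in Ep300Δ/ΔTet2-/- cells. Within each list that region ranked above 75.4%, 42.3%, 53.5%, and 31.0% of peaks, in the same order. A further 3 intronic regions, centered 6814, 7609, and 17471 bp past the start, were listed in WT alone, and all 3 had H3K4me1 in every genotype. H3K4me1 covered 12268, 11435, 11606, and 8999 bp of the span in the same order, so it was broad in all 4 lists.

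Tk1, the thymidine salvage kinase, had 4796 bp of H3K27ac in WT and 2228, 2249, and 1900 bp in Ep300Δ/Δ, Tet2-/-, and Ep300Δ/ΔTet2-/- cells. The upstream region kept in every list (chr11:117827628-117829541) spanned -3283 to -1536 in WT, -3394 to -2751 in Ep300Δ/Δ, -3449 to -2642 in Tet2-/-, and -3258 to -2821 in Ep300Δ/ΔTet2-/- cells. Its fold was 7.02, 4.16, 2.36, and 5.02 in the same order. The region ranked above 52.6% of peaks in the WT list but above only 0.5% in the Tet2-/- list. Its call in Tet2-/- cells was thus among the weakest of that list. Farther upstream, 3 narrow regions centered at -3830, -4305, and -4842 were listed in WT alone and had H3K4me1 in all 4 genotypes. Cdt1, the licensing factor, kept an upstream region (chr8:122564239-122565415) whose fold was 18.63, 8.18, 8.28, and 6.13 in WT, Ep300Δ/Δ, Tet2-/-, and Ep300Δ/ΔTet2-/- cells. Within each list that region ranked above 88.7%, 67.3%, 62.5%, and 41.6% of peaks. H3K4me3 at Cdt1 covered 6884, 5474, 6215, and 5288 bp of the span in the same order. That was the most of any member except in Ep300Δ/Δ cells, where Cdc20, an activator of the anaphase-promoting complex, had 5697 bp.

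The sequences around 4 of these summits are shown because they compare regions that were kept with 1 that was not. Each is the WT summit with 100 bases either side, read along the gene. Capitals mark the ETS word AGGAAG, the RUNX word TGTGGT, and the GATA word AGATAA on either strand, words of blood transcription factor families that were chosen after the regions were known.
E2f2, kept in all 4 lists, chr4:136178215-136178415, plus strand: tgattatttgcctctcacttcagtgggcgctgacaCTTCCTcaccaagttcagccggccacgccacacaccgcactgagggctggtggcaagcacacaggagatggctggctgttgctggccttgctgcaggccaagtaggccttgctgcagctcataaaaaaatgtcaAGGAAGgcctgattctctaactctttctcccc
E2f2, WT alone, chr4:136178969-136179169, plus strand: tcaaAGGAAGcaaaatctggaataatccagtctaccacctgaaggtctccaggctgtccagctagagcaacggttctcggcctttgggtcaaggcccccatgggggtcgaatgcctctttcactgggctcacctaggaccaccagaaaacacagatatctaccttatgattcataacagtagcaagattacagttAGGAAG
Tk1, kept in all 4 lists, chr11:117828882-117829082, minus strand: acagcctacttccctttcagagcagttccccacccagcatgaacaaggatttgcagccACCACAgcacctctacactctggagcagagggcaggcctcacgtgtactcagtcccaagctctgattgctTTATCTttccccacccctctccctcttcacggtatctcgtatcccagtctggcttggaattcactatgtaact
Cdt1, kept in all 4 lists, chr8:122564635-122564835, plus strand: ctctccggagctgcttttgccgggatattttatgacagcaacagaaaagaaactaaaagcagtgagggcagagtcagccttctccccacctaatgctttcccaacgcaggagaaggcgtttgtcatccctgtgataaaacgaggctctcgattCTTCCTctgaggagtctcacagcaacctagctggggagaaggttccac
Both E2f2 windows held 2 ETS words, the Cdt1 window 1, and the Tk1 window a RUNX and a GATA word. Of the 34 regions away from other genes' coding starts, 14 held an ETS word (41.2%), 6 a RUNX word (17.6%), and 2 a GATA word (5.88%). In WT windows of the same length outside coding promoters the shares were 29.0%, 15.7%, and 6.88%. The ETS word stood in 7 of the 16 regions in WT alone and in 3 of the 6 in all 4 lists, so it did not separate them. A RUNX word stood in 1 of the 16 and 2 of the 6, and a GATA word in 1 of the 16 and 1 of the 6. These counts are too small to compare.

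**Figure D5:**
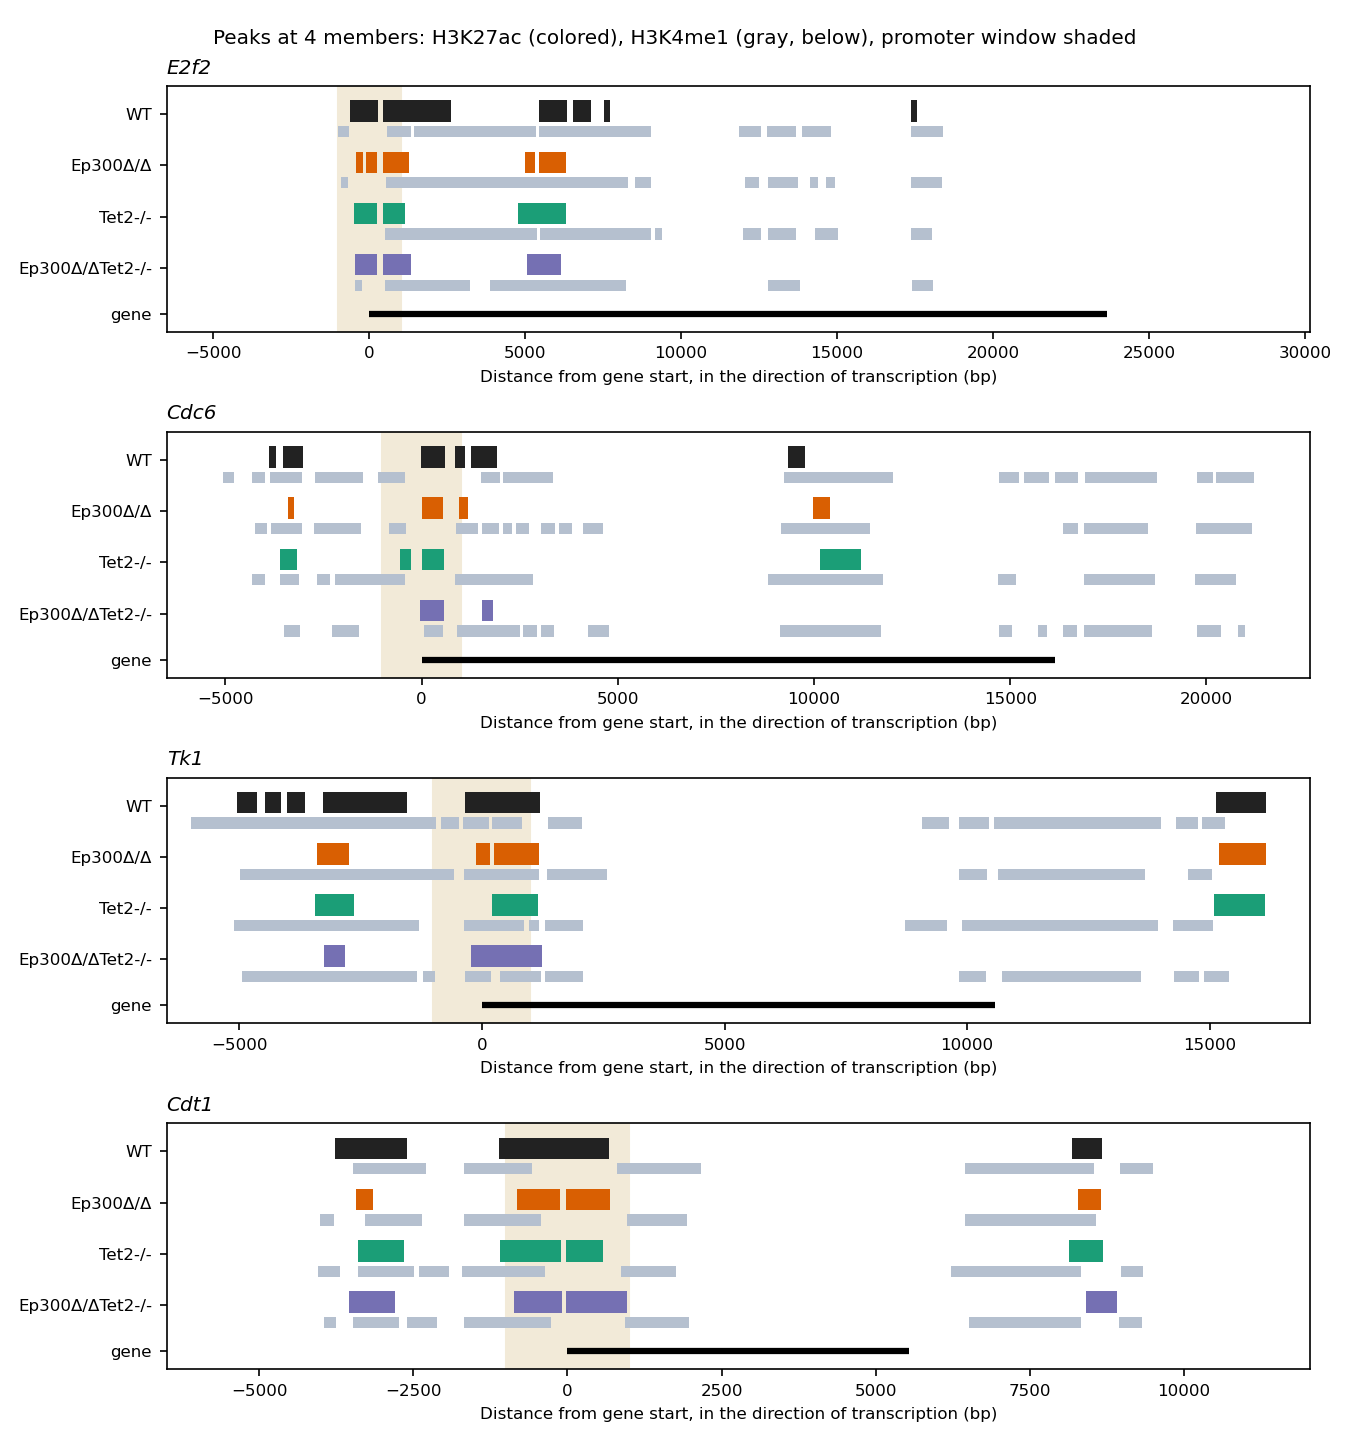
Peaks at E2f2, Cdc6, Tk1, and Cdt1 by distance from the gene start (x axis, bp, in the direction of transcription), with 1 row per genotype. Colored bars are H3K27ac peaks, gray bars below them H3K4me1 peaks, the shaded band the promoter window, and the black bar the gene body. Narrow H3K27ac peaks at E2f2 and Tk1 appear in the WT row alone, over H3K4me1 that is present in every row.

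Other members had fewer regions or less regular ones. Cdc6, which brings the helicase ring to origins, had 5 regions outside the promoter and outside other coding starts, and none was listed in all 4 genotypes. Its span held 2679, 1375, 2342, and 906 bp of H3K27ac in WT, Ep300Δ/Δ, Tet2-/-, and Ep300Δ/ΔTet2-/- cells. The region upstream at -3322 was listed in WT, Ep300Δ/Δ, and Tet2-/- cells, with a fold of 5.97, 3.72, and 5.3, and not in Ep300Δ/ΔTet2-/- cells. E2f8, an E2F repressor, had a downstream region centered 16504 bp past its start in WT and Tet2-/- cells and in neither genotype without p300. Ccne1, cyclin E1, had an intronic region at 1512 bp with the same pattern, and Mcm2 an upstream region at -4846. These 3 were the members with regions listed in both genotypes that keep p300 and in neither that lacks it, and their folds were low, 3.33 to 6.57 in WT. The Mcm2 region lay near an annotated transcript start of Tpra1 and had H3K4me3 in all 4 lists. The share of regions at coding genes with this pattern was not computed, so the count cannot be called particular to the members.

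Gins1 differed from the other kept regions. Its intronic H3K27ac region (chr2:150909254-150910342) had H3K4me3 and no H3K4me1 in all 4 genotypes, and it holds the start of the protein-coding Gins1 transcript, 4194 bp past the gene start. The annotated gene start of Gins1 is that of a noncoding transcript beside Abhd12, so what counts here as an intronic region is a promoter. In 39 of 43 members the gene start was also the start of a coding transcript, and in the other 3 a coding transcript began within 50 bp of it. The fold was 23.37 in WT, 28.64 in Ep300Δ/Δ, 29.46 in Tet2-/-, and 17.5 in Ep300Δ/ΔTet2-/- cells, ranking above 92.7%, 97.9%, 96.8%, and 88.1% of each list. At E2f1 a region at -4695 ranked above 86.8%, 78.1%, 85.3%, and 72.6% of peaks, in the order WT, Ep300Δ/Δ, Tet2-/-, and Ep300Δ/ΔTet2-/-, higher in each than the strongest promoter region of E2f1, which ranked above 75.6%, 42.1%, 52.9%, and 44.6%. Aurkb, the kinase of the chromosomal passenger complex, had an upstream region at -5319 in all 4 lists and another at -4011 in WT alone. In Ep300Δ/Δ cells the peak of the first lay more than 5000 bp from the gene and was counted because it overlapped the merged region, as was also the case for 1 list each at a Tk1 and a Cdc20 region.

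Regions in Ep300Δ/ΔTet2-/- cells alone numbered 3. Those of Mcm4 and Plk1, centered 1154 and 1179 bp past the start, lay just outside the promoter window, and that of Mki67, the Ki-67 proliferation antigen, at 2843 bp in an intron. All 3 had H3K4me1 and H3K4me3 peaks in every genotype. Their fold was 5.41, 4.33, and 5.71. The share of regions at coding genes listed in Ep300Δ/ΔTet2-/- cells alone was not computed.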

How the data were processed

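Lin- cell chromatin of 4 genotypes was precipitated for 3 marks, with 1 library each. Per the methods and labels adapters were removed by the authors with cutadapt 1.15, BWA 0.7.13 mapped the reads to mm10, duplicates were removed with Picard, and the authors called narrow peaks with MACS2 2.1.1.20160309 against the H3 library of the genotype, keeping peaks of pseudo-replicates with a q value under 0.05. The labels state single-end and the methods paired-end reads. The deposited lists give each peak's position, its fold (ratio) over H3, and the -log10 of its q value. They give no counts, so depth is unknown, and a peak that barely missed the caller's threshold is treated as no peak.

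Samples were grouped by their labels. The 43 members, their roles, and the lists of other genes were chosen with earlier results of these data known. Some markers of mature cells are not reported here. Named in depth were members lacking a promoter peak of a mark or carrying H3K27ac outside coding promoters, and those with the longest H3K27ac or H3K4me3 in each role. Gene starts are those of GENCODE release 21, and overlap is 1 bp or more. The authors' fold values were ranked within a list only, and their q values served to cut the lists. Folds printed for several genotypes are not amounts that can be compared between them. H3K27ac lists were compared between WT and Ep300Δ/Δ, Tet2-/- and Ep300Δ/ΔTet2-/-, and WT and Tet2-/- cells. Other windows, thresholds, and list sizes were tried. As a check of the code, promoter peaks of members were deleted from copies of the WT H3K27ac list, and 200 of 200 deletions were found. The deletions used the counting rule itself, so this outcome was fixed in advance and says nothing about finding real losses. Promoter counts equaled those of bedtools 2.31.1 in 12 of 12 lists. Work was done in Python 3.11.15 with numpy 2.4.6, pandas 2.3.3, pysam 0.24.0, and matplotlib 3.10.9.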

Additional observations from a re-analysis of the deposited data

Results flagged for a closer look

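The contrast of p300 loss went opposite ways with and without Tet2 at 2 regions of Cdc6, and these differences were not tested. The intronic region centered 1595 bp past the Cdc6 start had H3K27ac in WT and Ep300Δ/ΔTet2-/- cells and in neither Ep300Δ/Δ nor Tet2-/- cells, with a fold of 5.62 and 5.16 in the lists that held it. The region centered 10580 bp past the start showed the reverse, with a fold of 3.54 in Ep300Δ/Δ and 4.36 in Tet2-/- cells. Both regions had H3K4me1 and H3K4me3 in all 4 genotypes. The region at 1595 bp lay near an annotated Cdc6 transcript start and began just past an H3K27ac region of the promoter window. For both regions the WT and Ep300Δ/Δ lists had peaks within 500 bp of each other. The WT to Ep300Δ/Δ difference was therefore no longer counted when such neighbors were taken as kept.

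The H3K27ac length in the promoter window was shorter in Ep300Δ/Δ than in WT cells and longer in Ep300Δ/ΔTet2-/- than in Tet2-/- cells at 16 members, and the reverse at 2, Ccnb1 and Bub1b. Among coding genes with promoter H3K27ac in all 4 lists, 31.5% showed the first pattern and 8.66% the reverse. The members lay near these shares, so the pattern is not particular to them. A difference of any size was counted. The changes were only -19 and 15 bp at Mcm2, and 10 and -21 bp at Bub1b. Plk1, Rrm1, and Ccnb2, given next, are examples with larger changes than these. In WT, Ep300Δ/Δ, Tet2-/-, and Ep300Δ/ΔTet2-/- cells the length was 1523, 1011, 1722, and 1967 bp at Plk1, 1082, 973, 894, and 1454 bp at Rrm1, and 1307, 1053, 634, and 1154 bp at Ccnb2. The change from WT to Ep300Δ/Δ was -512 bp at Plk1, -109 bp at Rrm1, and -254 bp at Ccnb2, and from Tet2-/- to Ep300Δ/ΔTet2-/- it was 245, 560, and 520 bp. With 1 list per genotype none of these was tested.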

How the results depend on the processing

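Of 216 recomputed counts, 182 stayed within 1.5 times the reported one. Promoter H3K27ac and H3K4me3 were listed at 43 of 43 members in every alternative that kept all members, except that H3K27ac in Ep300Δ/ΔTet2-/- cells fell to 42 at a -log10 q of at least 5, which made 1 promoter lost from Tet2-/-. Promoter H3K4me1 depended on the window: within 500 bp it was listed at 12 (WT), 16 (Ep300Δ/Δ), and 13 (Tet2-/-) members, within 3000 bp at 41 in Ep300Δ/ΔTet2-/- cells, and at a -log10 q of at least 5 at 15 in Ep300Δ/Δ cells. Over the gene body alone, 12, 6, 8, and 7 members (WT, Ep300Δ/Δ, Tet2-/-, Ep300Δ/ΔTet2-/-) had H3K27ac outside the promoter and 16, 13, 17, and 16 had H3K4me3. Away from other genes' coding starts, 10 (Ep300Δ/Δ) and 12 (Ep300Δ/ΔTet2-/-) had H3K27ac and 14 (Ep300Δ/Δ) had H3K4me3.

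Lost regions were the least stable. From WT to Ep300Δ/Δ they numbered 25 as reported, 13 over the gene body alone, 15 at a -log10 q of at least 5, 14 with neighbors within 500 bp counted as kept, and 4 with lists of equal size, and gained regions 2, with 0 at that q, 0 with neighbors, and 1 with equal lists. From Tet2-/- to Ep300Δ/ΔTet2-/- lost regions numbered 8, or 3 over the gene body and 5 with equal lists, and gained regions 5, or 8 with equal lists and 2 with neighbors. From WT to Tet2-/- lost regions numbered 20, or 11 over the gene body, 9 at that q, 3 with equal lists, and 11 with neighbors, and gained regions 4, or 2 over the gene body, 6 with equal lists, and 1 with neighbors. Keeping only peaks with q under 0.05, an alternative chosen after seeing the data, gave 26 lost regions from WT to Ep300Δ/Δ and changed none of the other counts of lost or gained H3K27ac regions and promoters, and it was not run for the counts of members with a peak. Leaving out a replicate was not possible with 1 library per genotype and mark. No paired analysis was possible because each group has 1 sample.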
